A study of Homo sapiens with 18 samples.

Results

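The Hippo pathway and YAP target genes described here were 10 genes chosen by name, out of 58302 genes in the tables: the target genes CTGF, CYR61 and ANKRD1, the angiomotin family genes AMOTL1 and AMOTL2, the pathway kinase LATS2, the LIM protein gene AJUBA, the co-activator genes YAP1 and WWTR1, which encodes TAZ, and the transcription factor gene TEAD1. RNA was sequenced from 3 lung cancer cell lines, namely EBC-1, which carries MET amplification, and PC-9 and HCC827, which both carry an EGFR exon 19 deletion. In each line, cells with a lentiviral shRNA against SYK (shSYK, clone TRCN0000003166) were compared with negative control cells (nc), giving 6 groups of 3 libraries. All shSYK cells carried the same single shRNA, and the labels do not say whether the 3 libraries of a group came from separate cultures, so p-values measure the spread between these libraries, which may be technical. SYK encodes a non-receptor tyrosine kinase, and the question of the comparison was how gene expression changes when it is depleted in these lines. The 10 genes and the gene lists below were chosen with earlier results of these data known. Counts set beside the share of all genes are therefore descriptions, not tests of the group.

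In the Hippo pathway, the kinases encoded by STK3 and STK4, with the adaptor SAV1, activate LATS1 and LATS2, which act together with MOB1A and MOB1B. LATS kinases phosphorylate YAP and TAZ and keep them out of the nucleus. Unphosphorylated YAP and TAZ enter the nucleus, bind TEAD transcription factors and switch on genes such as CTGF, CYR61 and ANKRD1, and they also switch on LATS2 and AMOTL2, which restrain YAP in turn. Messenger RNA levels of these genes do not report the phosphorylation or the location of YAP, which were not measured here.

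The TEAD word GGAATG, the core of the sequence that TEAD factors bind, stood in the promoter windows of 6 of the 8 members that have a window in the RefSeq promoter table (GRCh38.p14, 250 bases before the start and 50 after it). The word was searched on both strands (CATTCC on the other strand), and it was found in 6 of the 11 windows of these members, against 14.0% of all 35116 windows of the same length. The AP-1 word TGANTCA, which reads the same on both strands, was found in 1 of these 11 windows, that of ANKRD1, against 7.71% of all windows, and it overlapped no TEAD word. The windows of CTGF (listed as CCN2, chr6:131951323-131951622, minus strand), ANKRD1 (chr10:90921038-90921337, minus strand), AMOTL2 (chr3:134374398-134374697, minus strand, 1 of its 2 windows) and LATS2 (chr13:21061537-21061836, minus strand) are printed because these 4 genes hold the word and rose in HCC827. They read 5′ to 3′ along the strand of the gene, with the TEAD and AP-1 words in capitals.
CTGF: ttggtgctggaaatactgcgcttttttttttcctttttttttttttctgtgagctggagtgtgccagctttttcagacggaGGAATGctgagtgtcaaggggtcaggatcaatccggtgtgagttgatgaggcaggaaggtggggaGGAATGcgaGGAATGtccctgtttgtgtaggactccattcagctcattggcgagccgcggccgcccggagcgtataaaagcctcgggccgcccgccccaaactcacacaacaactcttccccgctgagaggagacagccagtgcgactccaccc
ANKRD1: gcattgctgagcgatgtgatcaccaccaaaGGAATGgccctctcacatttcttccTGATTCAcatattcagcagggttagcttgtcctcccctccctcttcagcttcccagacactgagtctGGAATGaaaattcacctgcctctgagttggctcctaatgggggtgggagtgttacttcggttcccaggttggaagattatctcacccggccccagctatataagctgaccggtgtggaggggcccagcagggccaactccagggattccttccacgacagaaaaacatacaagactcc
AMOTL2: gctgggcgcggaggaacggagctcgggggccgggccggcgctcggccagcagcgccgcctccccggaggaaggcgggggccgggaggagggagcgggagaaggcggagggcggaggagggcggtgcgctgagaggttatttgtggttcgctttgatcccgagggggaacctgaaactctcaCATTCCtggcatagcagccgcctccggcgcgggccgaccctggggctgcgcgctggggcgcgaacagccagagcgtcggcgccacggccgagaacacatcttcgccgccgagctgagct
LATS2: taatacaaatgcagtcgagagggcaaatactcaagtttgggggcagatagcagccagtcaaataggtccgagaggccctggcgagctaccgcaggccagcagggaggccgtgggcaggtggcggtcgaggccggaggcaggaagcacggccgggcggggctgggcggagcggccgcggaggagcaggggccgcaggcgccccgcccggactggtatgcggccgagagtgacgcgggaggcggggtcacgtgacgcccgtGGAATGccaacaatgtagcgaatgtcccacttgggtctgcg
With the start site as base 1 and the base before it as -1, CTGF held the TEAD word at -169, -104 and -95, which made it the member with the most copies. ANKRD1 held it at -220 and -128, with the AP-1 word between them at -195. AMOTL2 held it once at -69, on the other strand, and LATS2 once at 10, after the start site. AJUBA held it at -59 in 1 of its 2 windows and YAP1 at -162, while the windows of AMOTL1 and WWTR1 held neither word. AJUBA and YAP1 did not pass limma's test in HCC827 (below). In EBC-1, CTGF, AMOTL2 and AJUBA fell, YAP1 rose, and ANKRD1 and LATS2 did not pass. A relation of the word to these changes was not tested. CYR61 and TEAD1, which also rose in HCC827, were not matched in the table. A match of letters is a description of the window, not a site of binding.

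SYK itself was lower in the shSYK libraries of all 3 lines. It fell from 14.2 to 7.43 FPKM in EBC-1, from 6.51 to 2.09 FPKM in PC-9 and from 9.08 to 2.99 FPKM in HCC827 (means, n = 3 per group), with log2 fold changes of -0.85, -1.29 and -1.34 and limma adjusted p of 0.000271, 0.00733 and 0.000197. In PC-9 the call was lost without shSYK library 1 (limma adjusted p = 0.0648). FPKM is the number of fragments per kilobase of gene, scaled to the size of the library, and all log2 fold changes below are on the log2(FPKM + 1) scale, shSYK minus nc, from limma with Benjamini-Hochberg adjustment over all genes tested, which understates the change of genes near 1 FPKM. Libraries held 7920099 to 15729103 reads on genes. Epithelial markers were present in every library (31.0 to 2777 FPKM for EPCAM, KRT8, KRT18, KRT19 and CDH1), the leukocyte marker PTPRC was at most 0.144 FPKM, the endothelial marker PECAM1 was at 4.28 to 14.4 FPKM in PC-9 and at most 0.215 FPKM in the other lines, and MET was highest in EBC-1 (436 to 632 FPKM). The summed epithelial level was 1197 to 1434 FPKM in nc and 1137 to 1192 FPKM in shSYK of EBC-1, and 3147 to 3519 against 2591 to 3008 FPKM in HCC827. In PC-9 it was 2707 to 4683 FPKM in nc and 3324 to 3744 FPKM in shSYK, so the groups overlapped. The summed fibroblast level (COL1A1, COL1A2, PDGFRB and DCN) was 2.61 to 2.89 against 1.82 to 2.37 FPKM in EBC-1 and 0.958 to 1.15 against 1.28 to 2.11 FPKM in HCC827, with COL1A2 and DCN at most 0.0463 and 0.0108 FPKM in any library. The fibroblast sum of PC-9 overlapped, at 5.49 to 8.371 FPKM in nc and 6.164 to 7.615 FPKM in shSYK. The part of these shifts in the results below was not tested. In bulk RNA, a change in the number of cells that express a gene and a change in RNA per cell cannot be told apart. Some libraries differed in how their values followed the GC content of genes. The trend was 0.0151 to 0.181 on the log2 scale per 10 points of GC in the nc libraries of EBC-1 and -0.197 to -0.0770 in its shSYK libraries, and 0.0449 to 0.0953 against -0.0918 to -0.0344 in HCC827. In PC-9 the nc libraries spread from -0.143 to 0.248, with nc library 1 highest, and that library stood furthest from the others of its line.

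In EBC-1, 7 of the 9 members tested changed, with CTGF, CYR61, AMOTL2 and AJUBA lower and YAP1, WWTR1 and TEAD1 higher in shSYK. This compares with 44.7% of the 12430 genes tested in that line, 23.1% higher and 21.6% lower. In HCC827, 6 of the 10 members changed and all 6 were higher, namely CTGF, CYR61, ANKRD1, AMOTL2, LATS2 and TEAD1, against 38.0% of 11999 genes, 17.2% higher and 20.7% lower. Of these, ANKRD1 reached the mean of 1 FPKM needed for testing only through its shSYK libraries. In PC-9, 0 of the 10 members passed limma's threshold, against 2.09% of 12089 genes, 0.678% higher and 1.41% lower. There, 2 members had an unadjusted p under 0.05 (WWTR1 and AMOTL1), and limma-voom on the recovered reads also called 0, against 485 of 12089 genes. The share of all genes at that unadjusted threshold is not given here, so these 2 cannot be set against it. The nc and shSYK libraries did not overlap for 8 of 9 members in EBC-1 (56.9% of all genes tested), 4 of 10 in PC-9 (23.7%) and 7 of 10 in HCC827 (52.3%). Because the members were chosen with earlier results of these data known, these counts beside all genes are a description. For a single gene, an exact permutation test of 3 against 3 libraries cannot go below a two-sided p of 0.1.

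**Figure D1:**
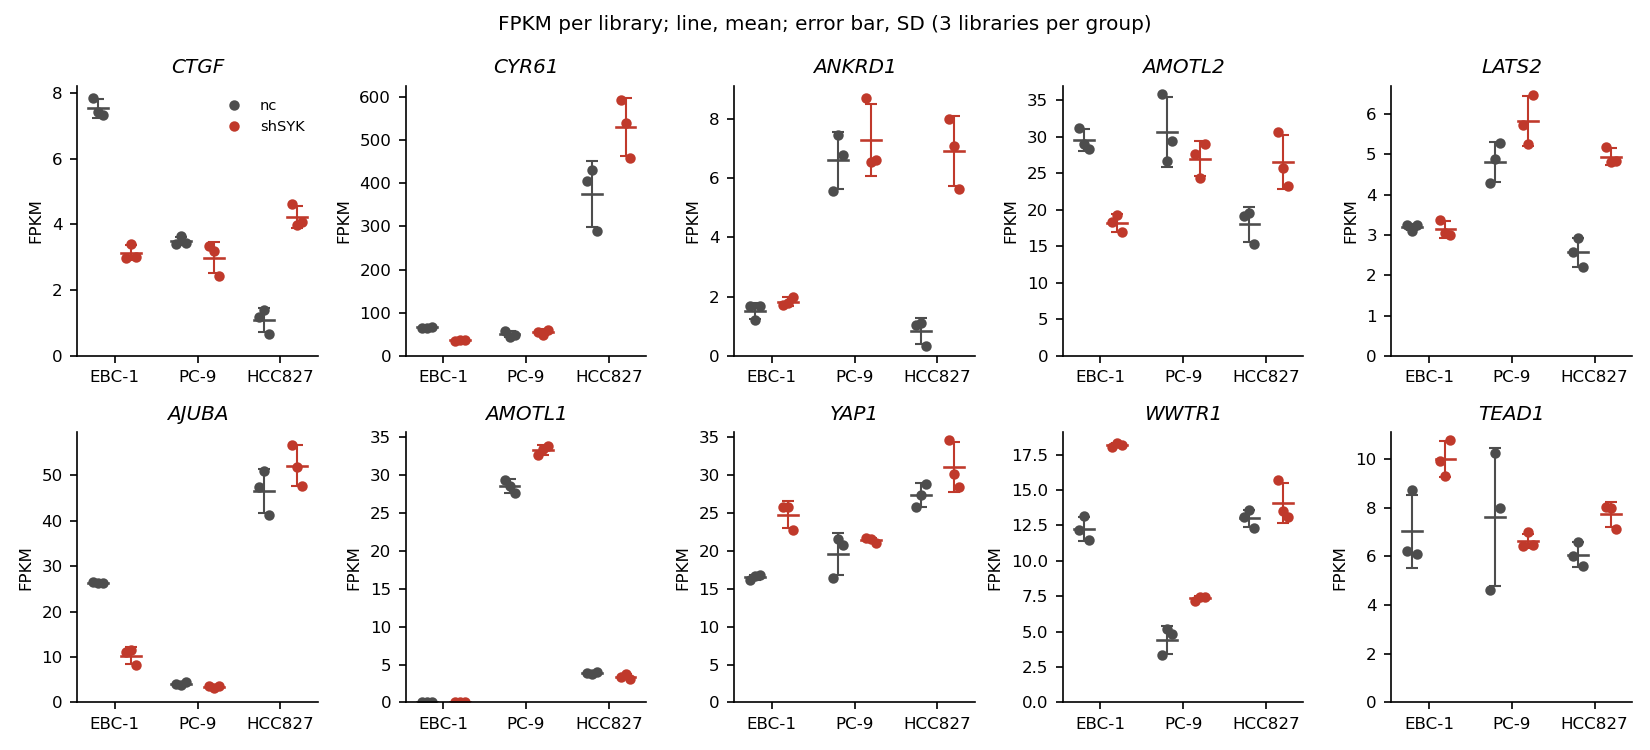
FPKM of the 10 members (1 panel each, linear axis from 0) in every library of EBC-1, PC-9 and HCC827; points are libraries, horizontal lines group means and error bars the SD of 3 libraries, with nc in grey and shSYK in red. CTGF was lower in all shSYK libraries of EBC-1 (2.99 to 3.40 FPKM against 7.32 to 7.85) and higher in all those of HCC827 (3.98 to 4.62 against 0.675 to 1.38).

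CTGF (chr6:131948176-131951373 on hg38) encodes a secreted matricellular protein and is one of the most used readouts of YAP activity. In EBC-1 its levels were 7.85, 7.41 and 7.32 FPKM in the nc libraries and 2.99, 3.40 and 3.02 FPKM in the shSYK libraries. The groups did not overlap, and CTGF fell by 1.05 on the log2 scale (SE 0.0737, limma adjusted p = 0.000115), to 41.6% of the nc mean. In HCC827 the levels were 1.18, 1.38 and 0.675 FPKM in nc and 4.62, 3.98 and 4.07 FPKM in shSYK. Every shSYK library was above every nc library, and the rise was 1.34 on the log2 scale (SE 0.138, limma adjusted p = 0.000573), or 3.91-fold between the means. In PC-9 the levels were 3.41, 3.64 and 3.44 FPKM in nc and 3.34, 3.18 and 2.44 FPKM in shSYK. The shSYK libraries lay just below the nc libraries, and the difference of -0.18 (95% interval -0.45 to 0.088) did not pass the test (limma adjusted p = 0.517). CTGF rested on 17 to 253 reads per library, fewer than most members. The shSYK effect differed between each pair of lines (EBC-1 minus HCC827 -2.39, limma adjusted p = 8.85e-08).

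CYR61 (chr1:85580761-85583962) encodes a matricellular protein of the same family as CTGF, and was the member with the highest level. In EBC-1 it was at 65.0, 65.3 and 67.9 FPKM in nc and at 34.2, 36.9 and 36.1 FPKM in shSYK. The replicates were tight and far apart, and CYR61 fell by 0.87 (SE 0.0615, limma adjusted p = 0.000116). In HCC827 it was at 405, 432 and 289 FPKM in nc and at 592, 539.8 and 459 FPKM in shSYK. The lowest shSYK library was above the highest nc library by a small margin, and the rise was 0.51 (SE 0.160, limma adjusted p = 0.0396). The call in HCC827 was lost without nc library 1 (limma adjusted p = 0.0588), nc library 3 (0.0644), shSYK library 1 (0.109) or shSYK library 2 (0.104), and with no filter on low genes (0.137). Without nc library 3, the lowest, the difference was 0.33. In PC-9 the levels of 58.1, 44.9 and 48.7 FPKM in nc and 55.8, 49.0 and 60.9 FPKM in shSYK overlapped (difference 0.13, 95% interval -0.19 to 0.45). The tables were deposited separately for each line, so levels across lines are given as a description. The nc level of CYR61 in HCC827 (mean 375 FPKM, SD 76.0) was above that of EBC-1 (66.0, SD 1.57) and PC-9 (50.6, SD 6.82) in every library. The levels of EBC-1 and PC-9 nc libraries did not overlap either, but lay close.

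ANKRD1 (chr10:90912096-90921276) encodes a nuclear ankyrin repeat protein and is a direct YAP target in many epithelial cells. It had the largest change of any member. In HCC827 the nc libraries held 1.05, 1.12 and 0.328 FPKM and the shSYK libraries 7.99, 7.08 and 5.64 FPKM, a rise of 2.13 on the log2 scale (SE 0.195, limma adjusted p = 0.000396) and of 8.30-fold between the means. The nc mean of 0.832 FPKM was below the 1 FPKM needed for testing, so ANKRD1 was tested there only because of its level in shSYK. The rise was larger, at 3.29, with limma-voom on the recovered reads, and its lowest nc library held 7 reads. Without nc library 3 the rise was 1.91. In EBC-1, ANKRD1 was at 1.69, 1.20 and 1.67 FPKM in nc and 1.73, 1.77 and 2.01 FPKM in shSYK. Here the shSYK libraries were all slightly higher, but the difference of 0.18 (95% interval -0.090 to 0.44) did not pass the test (limma adjusted p = 0.242), although CTGF and CYR61 fell in the same cells. In PC-9, where the nc level was highest among the lines, the values of 5.56, 7.48 and 6.79 FPKM in nc and 8.70, 6.56 and 6.62 FPKM in shSYK overlapped.

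AMOTL2 (chr3:134355874-134375479) encodes an angiomotin family protein that binds YAP and holds it in the cytoplasm, and it is also a YAP target gene. In EBC-1 its levels were 31.2, 28.9 and 28.3 FPKM in nc and 18.4, 19.3 and 16.9 FPKM in shSYK, a fall by 0.67 (SE 0.0745, limma adjusted p = 0.000668). In HCC827 they were 19.2, 19.6 and 15.3 FPKM in nc and 30.6, 25.6 and 23.3 FPKM in shSYK. The groups did not overlap in either line, and AMOTL2 rose by 0.53 in HCC827 (SE 0.122, limma adjusted p = 0.0125, and 0.0501 when no filter on low genes was used). In PC-9 the levels of 35.9, 26.6 and 29.3 FPKM in nc and 27.6, 24.3 and 29.0 FPKM in shSYK overlapped, with a difference of -0.17. AMOTL2 thus moved in the same direction as CTGF and CYR61 in EBC-1 and in HCC827.

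AMOTL1 (chr11:94706431-94876753), a second angiomotin family gene, differed most between the lines. It was hardly present in EBC-1, with 1 to 6 reads per library and at most 0.0434 FPKM, and was not tested there. In HCC827 it stood at 3.83, 3.82 and 4.02 FPKM in nc and 3.31, 3.72 and 3.07 FPKM in shSYK, and in PC-9 at 29.4, 28.6 and 27.7 FPKM in nc and 32.7, 33.5 and 33.9 FPKM in shSYK. The groups did not overlap in these lines, but neither the difference of -0.17 in HCC827 (limma adjusted p = 0.124) nor that of 0.22 in PC-9 (0.321) passed the test. In PC-9 it passed in the fit of all 18 libraries (limma adjusted p = 0.0362) and with the trends on length and GC content removed (0.0426). The shSYK effect in PC-9 was above that in HCC827 by 0.38 (limma adjusted p = 0.0137), and this call was lost with a pseudocount of 0.1 (0.183) and when libraries were rescaled to equal sums (0.0712).

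LATS2 (chr13:20973032-21061547) encodes a kinase that phosphorylates YAP and TAZ. In HCC827 it was at 2.58, 2.92 and 2.21 FPKM in nc and at 5.19, 4.80 and 4.83 FPKM in shSYK. All shSYK libraries lay above all nc libraries, with a rise of 0.74 (SE 0.0874, limma adjusted p = 0.00102). In EBC-1 the nc libraries held 3.24, 3.11 and 3.25 FPKM and the shSYK libraries 3.38, 3.05 and 2.99 FPKM. These groups overlapped, with a difference of -0.02 (95% interval -0.20 to 0.16), whose sign turned with rescaling to equal sums (0.08) and with limma-voom (0.07). In PC-9 the values were 4.29, 4.87 and 5.28 FPKM in nc and 5.73, 5.27 and 6.48 FPKM in shSYK, which overlapped (difference 0.23, limma adjusted p = 0.376). The effect in HCC827 was above that in EBC-1 (difference EBC-1 minus HCC827 -0.76, limma adjusted p = 0.000403) and above that in PC-9 (difference PC-9 minus HCC827 -0.51, limma adjusted p = 0.0198).

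AJUBA (chr14:22971174-22982642) encodes a LIM domain protein that binds LATS kinases and limits their action on YAP. It was the member with the largest fall. In EBC-1 the nc libraries held 26.6, 26.3 and 26.2 FPKM and the shSYK libraries 11.1, 11.5 and 8.13 FPKM, a fall by 1.30 (SE 0.120, limma adjusted p = 0.000336). The level in shSYK was 2.57 times lower than in nc. In HCC827, the line with the highest level, AJUBA was at 47.4, 50.9 and 41.3 FPKM in nc and at 56.7, 51.9 and 47.6 FPKM in shSYK. Those groups overlapped and the difference of 0.16 did not pass the test (limma adjusted p = 0.21, and 0.0261 with limma-voom on the recovered reads). In PC-9 it was at 4.06, 3.83 and 4.57 FPKM in nc and at 3.61, 3.22 and 3.66 FPKM in shSYK, without overlap, with a difference of -0.20 (limma adjusted p = 0.403). The effect in EBC-1 was below that in PC-9 by 1.10 and below that in HCC827 by 1.46 on the log2 scale, given as differences of -1.10 (limma adjusted p = 0.000169) and -1.46 (8.04e-06).

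YAP1 (chr11:102110461-102233423) and WWTR1 (chr3:149517235-149736714) encode YAP and TAZ, the co-activators on which the pathway acts. In EBC-1 YAP1 was at 16.2, 16.6 and 16.8 FPKM in nc and at 25.8, 25.8 and 22.8 FPKM in shSYK. WWTR1 was at 12.2, 13.1 and 11.5 FPKM in nc and at 18.05, 18.3 and 18.2 FPKM in shSYK. Both groups were fully separate, with a rise of 0.55 for YAP1 (SE 0.0718, limma adjusted p = 0.00113) and of 0.54 for WWTR1 (SE 0.0695, limma adjusted p = 0.00114). Both genes are low in GC (43.5% and 42.2%), and with the trends on the length and GC content of genes removed the rises were 0.39 and 0.27 and still passed the test. In the same EBC-1 libraries CTGF, CYR61 and AMOTL2 fell, so the co-activator genes and these targets moved in opposite directions.

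In PC-9 WWTR1 had the largest difference of any member, from 3.32, 5.19 and 4.80 FPKM in nc to 7.15, 7.44 and 7.46 FPKM in shSYK. Every shSYK library was higher, but nc library 1, which stood apart in its GC trend, was also the lowest for WWTR1, and the difference of 0.64 did not pass the test (SE 0.143, limma adjusted p = 0.0776). It passed without nc library 1 (difference 0.48, limma adjusted p = 0.0243), without nc library 2 (0.74, limma adjusted p = 0.0309), with quantile normalization (0.0452), in the fit of all 18 libraries (0.00116) and with the trends removed (0.00577). In the other 10 of 15 alternatives WWTR1 did not pass, with limma adjusted p of 0.155 for equal sums, 0.116 for limma-voom and at most 0.283. YAP1 in PC-9 was at 16.5, 21.6 and 20.8 FPKM in nc and at 21.7, 21.5 and 21.1 FPKM in shSYK, with overlap (difference 0.13, limma adjusted p = 0.697). In HCC827 YAP1 was at 25.8, 27.4 and 28.9 FPKM in nc and at 34.7, 30.2 and 28.4 FPKM in shSYK, and WWTR1 was at 13.1, 13.6 and 12.3 FPKM in nc and at 15.7, 13.5 and 13.1 FPKM in shSYK. Both overlapped there, with differences of 0.17 (limma adjusted p = 0.135) and 0.11 (0.314). For YAP1 in HCC827 the test was passed after quantile normalization (limma adjusted p = 0.0433) or limma-voom (0.00959), while the sign of WWTR1 turned (-0.019) when the trends on length and GC content were removed.

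TEAD1 (chr11:12674591-12944483) encodes a DNA-binding partner of YAP and TAZ. In EBC-1 it was at 6.23, 8.75 and 6.11 FPKM in nc and at 9.93, 9.29 and 10.8 FPKM in shSYK, and in HCC827 at 6.002, 6.61 and 5.63 FPKM in nc and at 8.04, 8.004 and 7.14 FPKM in shSYK. The groups did not overlap in either line. The rise was 0.47 in EBC-1 (SE 0.130, limma adjusted p = 0.0224) and 0.30 in HCC827 (SE 0.0758, limma adjusted p = 0.0176). With the trends on length and GC content removed, neither passed (0.21, limma adjusted p = 0.0745, in EBC-1, and 0.18, limma adjusted p = 0.085, in HCC827). In EBC-1 the call was also lost without nc library 1 (limma adjusted p = 0.0789), nc library 3 (0.0753), shSYK library 1 (0.0566) or shSYK library 3 (0.0681), and in HCC827 without nc library 1 (0.0515), nc library 3 (0.0514), shSYK library 1 (0.0532) or shSYK library 2 (0.0622). With no filter the value in EBC-1 was 0.0759, and in the fit of all 18 libraries that in HCC827 was 0.241 (limma adjusted p). In PC-9 the nc libraries ranged most widely, at 4.61, 10.2 and 8.01 FPKM against 6.45, 6.99 and 6.48 FPKM in shSYK, and the shSYK values lay inside that range.

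**Figure D2:**
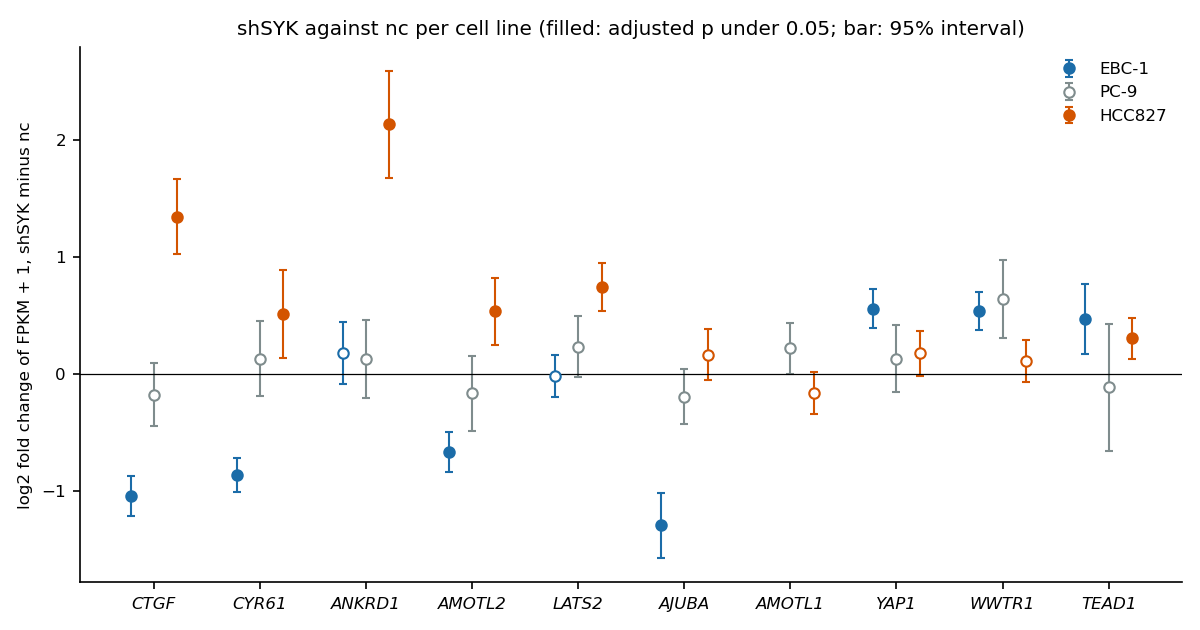
Log2 fold changes of FPKM + 1 (shSYK minus nc) of the 10 members in each cell line, with 95% intervals from limma; filled points passed an adjusted p of 0.05. CTGF, CYR61, AMOTL2 and AJUBA lie below 0 in EBC-1, CTGF (1.34) and ANKRD1 (2.13) lie highest in HCC827, and no point of PC-9 is filled.

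The difference of the shSYK effect between lines was tested directly in a fit of all 18 libraries. SYK itself fell less in EBC-1, to 52.3% of the nc mean, against 32.1% in PC-9 and 32.9% in HCC827. Its difference passed the test between EBC-1 and HCC827 (0.49, limma adjusted p = 0.0278). It did not pass between EBC-1 and PC-9 (0.44, 0.0516) or between PC-9 and HCC827 (0.056, 0.895). The part of this in the differences below was not tested. Between EBC-1 and HCC827, 6 of the 10 members differed, against 21.8% of 12672 genes. These were CTGF (-2.39), ANKRD1 (-1.95), AJUBA (-1.46), CYR61 (-1.38), AMOTL2 (-1.20) and LATS2 (-0.76), all with a lower effect in EBC-1. Between EBC-1 and PC-9, 4 differed, against 19.8% of genes, with CTGF (-0.86), CYR61 (-0.996) and AJUBA (-1.10) lower and YAP1 (0.43) higher in EBC-1. Between PC-9 and HCC827, 6 differed, against 7.50% of genes. There CTGF (-1.52), ANKRD1 (-2.01), AMOTL2 (-0.70) and LATS2 (-0.51) had a lower effect in PC-9, and AMOTL1 (0.38) and WWTR1 (0.53) a higher one. For CYR61 the PC-9 and HCC827 effects were 0.13 and 0.51, and their difference of -0.38 (95% interval -0.79 to 0.029) did not pass the test (limma adjusted p = 0.293). The 3 pairs share the libraries of their common line and are not independent. The 10 members include AMOTL1, which was at most 0.0434 FPKM in EBC-1. AMOTL1 reached the mean of 1 FPKM needed for this fit through the other lines. Leaving out PC-9 nc library 1 raised the members that differed between EBC-1 and PC-9 from 4 to 7. Among all genes, the number rose from 2509 to 4597 in that setting. Leaving out HCC827 nc library 3 or PC-9 shSYK library 2 lowered the members that differed between PC-9 and HCC827 from 6 to 3. With a library left out, all genes that differed between these lines ranged from 647 to 2401, against 951. The call of YAP1 was kept only without EBC-1 nc library 2, EBC-1 shSYK library 3 or PC-9 nc library 1 and lost without any other single library of its 12 (limma adjusted p from 0.0589 to 0.0867). That of WWTR1 was kept only without HCC827 shSYK library 1 or any nc library of PC-9 (0.0635 to 0.104 without each of the others). AMOTL2 between PC-9 and HCC827 was lost without HCC827 nc library 3 (limma adjusted p = 0.0564), HCC827 shSYK library 1 (0.0568) or PC-9 shSYK library 2 (0.0558), and LATS2 without HCC827 nc library 3 (0.0581), HCC827 shSYK library 1 (0.0551), PC-9 nc library 3 (0.0597) or PC-9 shSYK library 2 (0.0581).

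Beyond the members, 36 genes that encode Hippo pathway regulators and transcription partners were examined, 7 of them members. Like the members, this list was chosen with earlier results of these data known. In EBC-1, 12 of the 30 tested rose and 3 fell, with a median log2 fold change of 0.19 against 0.0090 over all genes tested. The 15 of 30 called were near the 44.7% called among all genes of that line (23.1% higher and 21.6% lower). With the trends on length and GC content removed together, 7 rose and 5 fell, with a median of 0.017, beside 2690 higher and 2712 lower of 12366 genes. In HCC827, 11 of 30 rose and 4 fell (median 0.11 against -0.0053), beside 17.2% higher and 20.7% lower among all genes. With the trends removed, 8 rose and 3 fell there, beside 1808 higher and 1942 lower of 11943 genes. In PC-9, 0 of 32 rose and 1 fell (median 0.060 against 0.0088), beside 0.678% and 1.41% among all genes, with 10 at an unadjusted p under 0.05. Limma-voom called 0 higher and 2 lower there, beside 120 higher and 365 lower of 12089 genes. For these 10, no share of all genes at the unadjusted threshold is given here. Among genes that are not members, the largest changes in EBC-1 were those of TAOK1 (0.64), a kinase that acts on STK3 and STK4, FRMD6 (0.56), a FERM domain protein upstream in the pathway, NF2 (0.42), the tumour suppressor merlin, and MOB1B (0.42), a co-activator of LATS kinases. The log2 fold change of TAOK1 was 0.24 when the trends on length and GC content were removed. The calls of FRMD6 (limma adjusted p = 0.0962) and MOB1B (0.678, with a turned sign of -0.068) were lost when the trends were removed. MOB1B was also lost without nc library 1 (limma adjusted p = 0.10), nc library 3 (0.0645), shSYK library 1 (0.0888) or shSYK library 3 (0.0984), with no filter (0.0935) and in the fit of all 18 libraries (0.0615).

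FRMD6 had the largest change of this list, from 3.05 to 10.7 FPKM in HCC827 (means, n = 3, log2 fold change 1.53, limma adjusted p = 0.00014). In the same line WWC2, a relative of KIBRA, rose by 0.57 (limma adjusted p = 0.00427), the DNA-binding factor TEAD2 fell by 0.9995 (0.000461) and the kinase gene STK4 fell by 0.57 (0.000562). The single gene called in PC-9 was AMOT, the founding angiomotin gene, which fell by 0.57 (limma adjusted p = 0.045), from 12.4 to 8.06 FPKM. That call was lost without nc library 3 (limma adjusted p = 0.217), shSYK library 1 (0.223), shSYK library 2 (0.217) or shSYK library 3 (0.124), and with no filter (0.0976). The TEAD genes did not move together: TEAD2 also fell in EBC-1 (-0.39, limma adjusted p = 0.00588), where TEAD1 rose, while TEAD3 and TEAD4 passed the test in none of the lines.

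The second list, also chosen with earlier results known, held 22 genes described as YAP and TAZ targets. Of these, 5 were members, and AMOTL2, LATS2 and PTPN14 stood on both lists. PTPN14, which is not a member, rose in HCC827 (0.54, limma adjusted p = 0.00349) and is counted in both. In HCC827, 13 of the 20 tested rose and 1 fell, with a median log2 fold change of 0.54 against -0.0053 over all genes, of which 17.2% rose and 20.7% fell. The 13 include ANKRD1 and AXL, whose nc means (0.832 and 0.648 FPKM) were below the 1 FPKM needed for testing. In EBC-1, 3 of 20 rose and 7 fell, with a median of -0.17 against 0.0090. These 10 of 20 were near the 44.7% of all genes called in EBC-1 (23.1% higher and 21.6% lower). In PC-9, 2 of 21 rose and 0 fell, with a median of 0.083 against 0.0088, beside 0.678% higher and 1.41% lower among all genes. Limma-voom called 1 higher and 0 lower there, beside 120 higher and 365 lower of 12089 genes. In the main fit of PC-9, 4 genes of the list had an unadjusted p under 0.05. For these 4, again, no share of all genes at the unadjusted threshold is given. Over the 15 non-member genes tested in EBC-1 and in HCC827, the counts were 3 higher and 4 lower in EBC-1 and 8 higher and 1 lower in HCC827. Over the 20 genes of the list tested, members included, 4 rose and 10 fell in EBC-1 and 13 rose and 1 fell in HCC827 with the trends on length and GC content removed. Among all genes in that setting, 2690 rose and 2712 fell of 12366 in EBC-1. In HCC827, 1808 rose and 1942 fell of 11943. When libraries were rescaled to equal sums, the median in EBC-1 was -0.050, beside a shift of 0.107 in the median of all genes.

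GADD45A, a stress-response gene that restrains the cell cycle, changed in all 3 lines and in different directions. It fell in EBC-1 from 81.8 to 42.7 FPKM (log2 fold change -0.92, limma adjusted p = 0.000389), and rose in PC-9 from 41.7 to 121 FPKM (1.51, 0.00231) and in HCC827 from 29.1 to 51.7 FPKM (0.80, 0.000146). TGFB2, which encodes a transforming growth factor ligand, fell in EBC-1 (-0.63, limma adjusted p = 0.00508) and rose in HCC827 (1.21, 0.00107) and PC-9 (0.56, 0.0488). In PC-9 the TGFB2 call was lost without nc library 3 (limma adjusted p = 0.217), shSYK library 1 (0.236), shSYK library 2 (0.183) or shSYK library 3 (0.181), and with no filter (0.129), equal sums (0.104) or limma-voom (0.0848). F3, which encodes tissue factor, rose in EBC-1 (0.89, limma adjusted p = 0.00077) and in HCC827 (1.53, 0.00301), so not all genes of the list fell in EBC-1. IGFBP3, an insulin-like growth factor binding protein, fell in EBC-1 (-0.66, limma adjusted p = 0.000918), and it was the gene of the list that fell in HCC827 (-0.64, 0.000422). ASAP1, a regulator of ARF GTPases, rose in HCC827 (0.76, limma adjusted p = 0.000973).

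**Figure D3:**
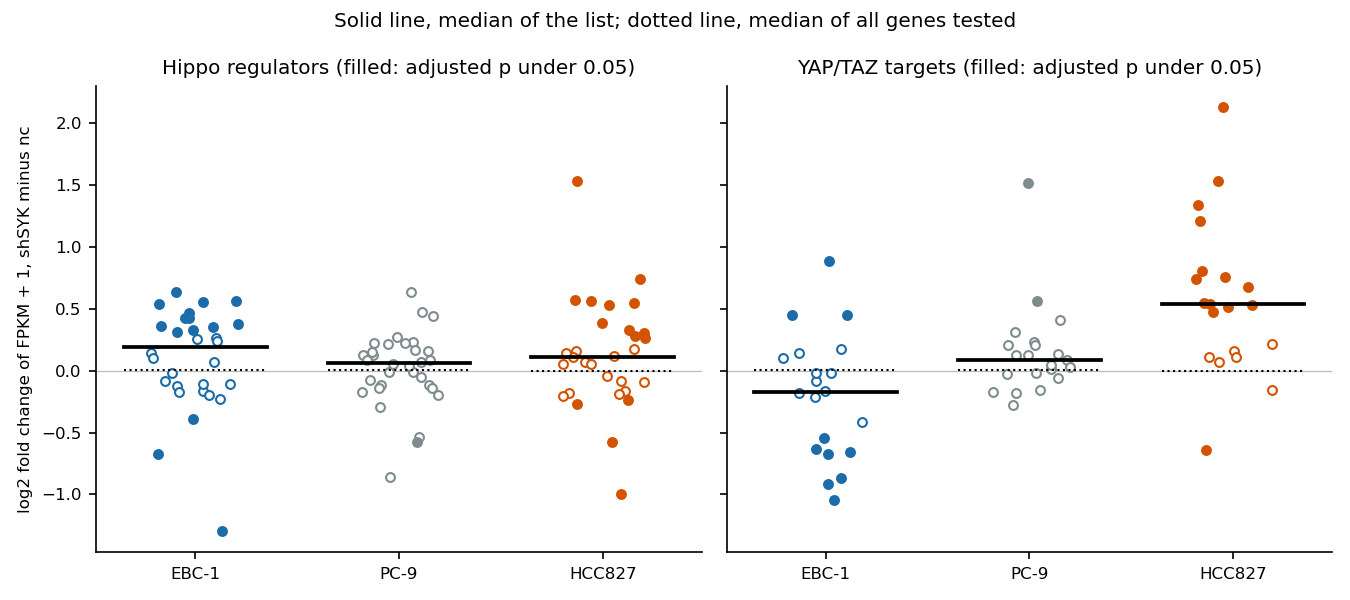
Log2 fold changes of FPKM + 1 (shSYK minus nc) of the tested genes of the Hippo regulator list (left) and the YAP and TAZ target list (right) in each line; filled points passed an adjusted p of 0.05, solid lines are list medians and dotted lines medians of all genes tested. The targets lie mostly above 0 in HCC827 (median 0.54), on both sides of 0 in EBC-1 (median -0.17) and near 0 in PC-9 (median 0.083).

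The genes whose pattern was most like that of CTGF were ranked among 10029 genes by Pearson's r over the 18 libraries, after the nc mean of each line was subtracted. They were KRT7-AS (r = 0.971), TGFBR2 (0.963), STMN1 (0.958), DBI (0.956) and FLNC (0.956). With libraries rescaled to equal sums, KRT7-AS, STMN1 and FLNC stayed among the 5 nearest, while TGFBR2 stood at rank 14 and DBI at rank 28. Of the members, AMOTL2 was closest to CTGF, at rank 16 (r = 0.934), followed by CYR61 (0.872), ANKRD1 (0.799), LATS2 (0.797) and AJUBA (0.777), while YAP1 (-0.41) and WWTR1 (-0.43) had negative values. For CYR61 the nearest genes included KIF3C (r = 0.959), ZFP36L1 (0.955), TMSB4X (0.951) and RRAS (0.951), and AMOTL2 stood at rank 13 (0.934). After rescaling to equal sums KIF3C and RRAS stayed among the 5 nearest, with ZFP36L1 at rank 6 and TMSB4X at rank 12. These values describe points that share lines, libraries and base composition, and they carry no test. KRT7-AS is antisense to KRT7, and whether the counting used strand is not given in the sources used here, so its reads and those of KRT7 may not be told apart. Genes that overlap a member held at most 2.60% of its reads, in the case of WWTR1 and its antisense gene WWTR1-AS1.

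**Figure D4:**
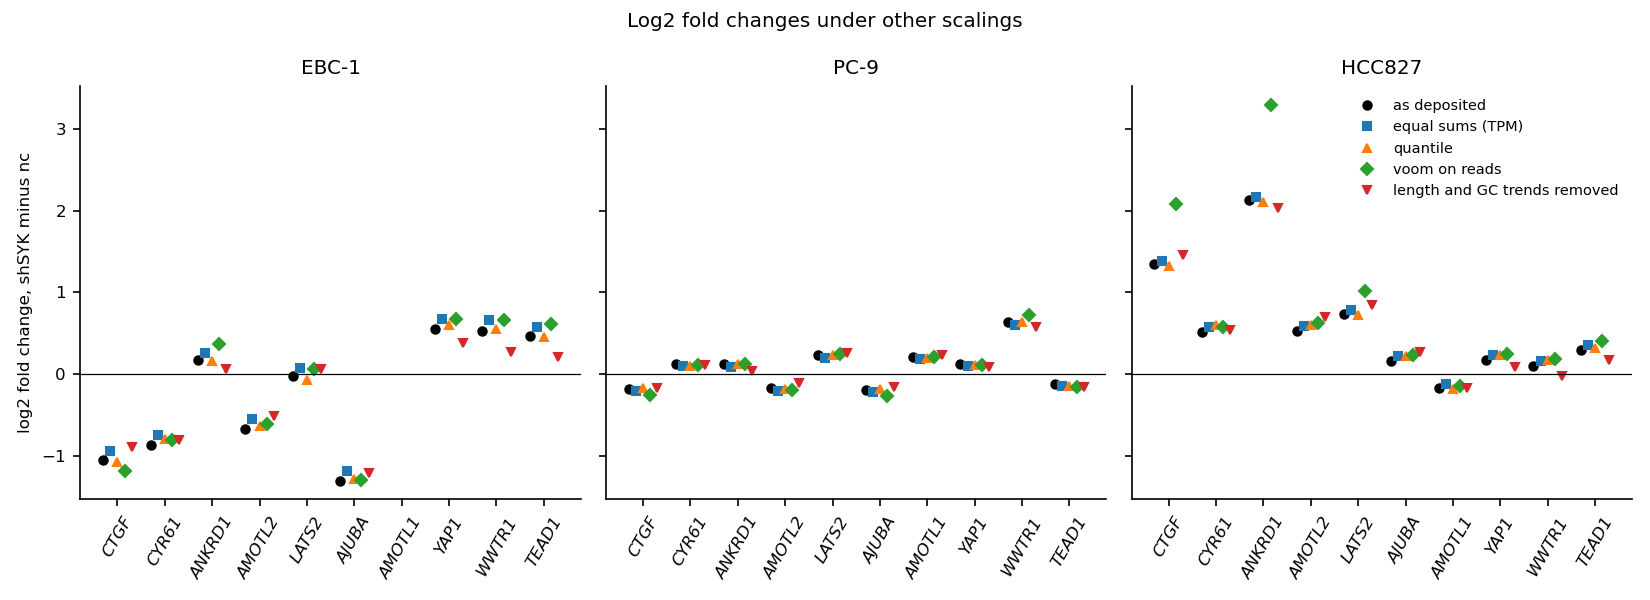
Log2 fold changes (shSYK minus nc) of the members in each line as deposited, with libraries rescaled to equal sums, with quantile normalization, with limma-voom on recovered reads, and after removal of trends on the length and GC content of genes. CTGF, CYR61, AMOTL2 and AJUBA stay below 0 in EBC-1 under all of these, LATS2 in EBC-1 changes sign (-0.02 to 0.08), and ANKRD1 in HCC827 is highest with limma-voom (3.29).

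The falls of CTGF, CYR61, AMOTL2 and AJUBA in EBC-1 kept their direction and passed the test under each of the other scalings, with the trends removed and without any single library of that line, as did the rises of CTGF, ANKRD1 and LATS2 in HCC827. Rescaling to equal sums shifted the median of all genes in EBC-1 by 0.107 on the log2 scale and changed the split of called genes from 2876 higher and 2686 lower to 4019 and 1901. Relative to that shift, CTGF (-0.94) and AJUBA (-1.18) remained below the median of all genes and YAP1 (0.68) above it. In HCC827 the split of called genes was 2066 higher and 2488 lower as deposited and 2482 and 1905 after rescaling.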

How the data were processed

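RNA-seq covered nc and shSYK cells of 3 lines, with 3 libraries per group, and libraries were grouped by their labels. The methods state extraction with TRIzol, sequencing on an Illumina HiSeq and hg38 as the genome, and the submitters' processing notes name HISAT2 and CASAVA. The counting program, annotation and strand setting are not given in the sources used here. The authors deposited 1 table of FPKM per line, which rests on reads, gene length and a divisor per library that is not defined. After multiplication by gene length, all values of a library were whole multiples of 1 step (within 3.21e-05), and the reads recovered this way gave the depth, 7920099 to 15729103 reads per library, and an alternative input. Read numbers cover counting error only. Replicates within a group were not copies of each other (chi-square per degree of freedom 2.11 to 38.66).

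Within a line, genes whose FPKM averaged 1 or more were tested on log2(FPKM + 1) with limma 3.58.1 in R 4.3.3, with empirical Bayes moderation and a variance trend. A two-sided Benjamini-Hochberg adjusted p under 0.05 was a call. Differences of effects between lines were tested in a fit of all 18 libraries. The script was tested on simulated data. Alternatives were a pseudocount of 0.1, no filter and a filter at 5 FPKM, rescaling to equal sums (TPM), quantile normalization, limma-voom on recovered reads, the fit of all 18 libraries, the replicate number as a block and each library left out. Removal of trends on the length and GC content of genes (lowess span 0.3, GENCODE v44 transcripts, 57532 of 58302 genes matched) was added after the data were seen. Promoter windows came from RefSeq (GRCh38.p14). The members and lists were chosen with earlier results of these data known. Named genes were SYK, the members, up to 4 called genes per list and line with the largest change, and the 5 genes nearest to CTGF and to CYR61. Of these, 1 is not reported here. TEAD2 in EBC-1 and PC-9, TEAD3, TEAD4 and, in HCC827, IGFBP3, PTPN14 and AXL were named after their values were seen. Python 3.11.15, numpy 2.4.6, pandas 2.3.3 and matplotlib 3.10.9 were used.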

Additional observations from a re-analysis of the deposited data

Results flagged for a closer look

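The effect of shSYK on 9 members differed between cell lines in limma's test of the difference itself, in 16 of the 30 comparisons of a member between 2 lines. The 30 include comparisons of AMOTL1 with EBC-1, where it was hardly present. Among all 12672 genes tested, 21.8% differed between EBC-1 and HCC827, 19.8% between EBC-1 and PC-9 and 7.50% between PC-9 and HCC827. Differences are of log2 fold changes on the log2(FPKM + 1) scale. Between EBC-1 and HCC827 they were -2.39 for CTGF, -1.38 for CYR61, -1.95 for ANKRD1, -1.20 for AMOTL2, -0.76 for LATS2 and -1.46 for AJUBA. Between EBC-1 and PC-9 they were -0.86 for CTGF, -0.996 for CYR61, -1.10 for AJUBA and 0.43 for YAP1. Between PC-9 and HCC827 they were -1.52 for CTGF, -2.01 for ANKRD1, 0.38 for AMOTL1, -0.70 for AMOTL2, -0.51 for LATS2 and 0.53 for WWTR1. For CTGF, CYR61 and AMOTL2 the shSYK libraries of EBC-1 were all below nc and those of HCC827 all above nc. The effect on SYK itself also differed between these lines (0.49, limma adjusted p = 0.0278). The difference of YAP1 between EBC-1 and PC-9 lost its call in 10 of 16 alternatives (limma adjusted p up to 0.0867). That of WWTR1 between PC-9 and HCC827 lost it in 11 of 16 (limma adjusted p up to 0.214). Between these 2 lines, the calls of AMOTL1 and AMOTL2 were each lost in 3 of 16 alternatives and that of LATS2 in 4. Their limma adjusted p reached 0.183, 0.0568 and 0.0597.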

How the results depend on the processing

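The members called in EBC-1 numbered 6 to 7 under every alternative, beside 3579 to 6309 among all genes. In HCC827 they numbered 3 with a filter at 5 FPKM, which leaves fewer members tested, 4 to 6 with a library left out, and 8 with limma-voom, which also called YAP1 and AJUBA. Among all genes of HCC827, 3320 of 6822 were called with that filter, against 4554 of 11999 in the main fit. With a library left out they numbered 3362 to 3949, and with limma-voom 5193 of 11999. In PC-9, 1 member was called with quantile normalization, beside 489 of 12089 genes, and 2 in the fit of all 18 libraries, beside 1354 of 12672. With trends on length and GC content removed, 2 members were called, beside 1226 of 12040 genes. With a library left out, 0 to 1 members were called, beside 7 to 621 genes. The members that differed with a library left out numbered 3 to 7 between EBC-1 and PC-9 and 3 to 7 between PC-9 and HCC827. Genes called in EBC-1 numbered 3579 with the filter at 5 FPKM, where fewer genes were tested. In PC-9, against 253, they numbered 47 with no filter, 491 after rescaling to equal sums, 489 with quantile normalization, 485 with limma-voom, 1354 in the fit of all 18 libraries and 1226 with trends removed, and ranged from 7 (without shSYK library 1) to 621 (without nc library 1) with a library left out. Genes that differed ranged from 1833 to 4597 (EBC-1 and PC-9) and from 647 to 2401 (PC-9 and HCC827), both highest without PC-9 nc library 1. The cause of these shifts was not tested. Limma-voom called 3876 genes higher and 2267 lower in EBC-1, and 3032 and 2161 in HCC827.

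Signs turned for LATS2 in EBC-1 (0.078 with equal sums, 0.067 with limma-voom, 0.063 with trends removed, -0.063 to 0.0047 with a library left out), MOB1B in EBC-1 (-0.068 with trends removed), WWTR1 in HCC827 (-0.019 with trends removed) and TEAD1 in PC-9 (-0.40 to 0.10 with a library left out). Differences that turned were those of WWTR1 between EBC-1 and PC-9 (0.051 with equal sums, -0.20 to 0.057 with a library left out), ANKRD1 between EBC-1 and PC-9 (-0.041 to 0.17) and YAP1 between PC-9 and HCC827 (-0.16 to 0.033). None of these differences had passed the test.

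Same-numbered nc and shSYK libraries did not deviate together in general, with correlations over genes from -0.219 to 0.325, and not every library correlated best with its own number. They share only a number. With the replicate block, the genes called numbered 4326 (EBC-1), 172 (PC-9) and 4111 (HCC827). MOB1B in EBC-1, AMOT and TGFB2 in PC-9 and 3 differences between lines (YAP1, AMOTL1, WWTR1) were no longer called, and the difference of AMOTL2 between EBC-1 and PC-9 was. Depth limits mainly ANKRD1 and CTGF in HCC827, whose lowest libraries held 7 and 17 reads, and AMOTL1 in EBC-1.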
